A study of Mus musculus with 7 samples.

Results

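The expression of 10 immediate early and AP-1 genes was examined in the myocardium of mice after myocardial infarction (MI). The genes were chosen by name and are the Fos family (Fos, Fosb, Fosl1 and Fosl2), the Jun family (Jun, Junb and Jund), and Egr1, Atf3 and Myc. All 10 were present among the 56980 genes of the deposited table. Myocardial tissue came from 7 male wild-type C57BL/6J mice, an inbred laboratory strain, which were 8 weeks old on arrival and were kept for 1 week before surgery. In 3 MI mice the left coronary artery was ligated and the tissue was taken 4 days later. The other 4 mice were sham-operated, with the same surgery but no ligation. The labels give the genotype of all 7 mice as WT and name no transgene or drug. Each mouse gave 1 library, and 1 time point was sampled, so the hours after surgery are not covered. The study calls the tissue of the MI mice ischemic, and how it was cut from each heart is not given in the sources used here. Expression was given as FPKM, the fragments counted on a gene divided by the length of the gene and by the fragments of the whole library.

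Immediate early genes are transcribed within minutes of a stimulus without the need for new protein, and their mRNAs decay fast. Fos and Jun proteins are basic leucine zipper (bZIP) proteins that pair into AP-1, a dimer that binds DNA near genes of matrix turnover, inflammation and growth. Fos proteins cannot pair with themselves and need a Jun partner, and in the heart the family is known to respond to stretch, ischemia and hormones. Egr1 is a zinc finger factor, Atf3 a stress-induced bZIP repressor, and Myc a factor that pairs with Max and drives genes of cell growth.

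Some of the factors that induce these genes bind just before their start, so the promoters that held TGACG or TGACATCA are shown first. RefSeq promoter sequences on GRCm38.p6 matched 7 of the 10 members. Those of Fosl1, Egr1 and Myc were not analysed here. The 150 bases before the annotated start are given 5′ to 3′ on the strand of the gene. They lie at chr12:85473740-85473889 on the plus strand for Fos, and on the minus strand at chr7:19310046-19310195 for Fosb, chr8:84978749-84978898 for Junb, chr1:191183334-191183483 for Atf3 and chr4:95052223-95052372 for Jun. Capitals mark TGACG, the core of the cyclic AMP response element, on either strand, and TGACATCA, a site described in the Jun promoter.
Fos: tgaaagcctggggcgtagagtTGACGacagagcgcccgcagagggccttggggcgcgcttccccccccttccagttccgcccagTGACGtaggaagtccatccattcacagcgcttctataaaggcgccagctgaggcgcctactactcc
Fosb: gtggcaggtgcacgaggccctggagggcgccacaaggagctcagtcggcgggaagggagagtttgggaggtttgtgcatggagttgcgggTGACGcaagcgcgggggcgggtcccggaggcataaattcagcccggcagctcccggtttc
Junb: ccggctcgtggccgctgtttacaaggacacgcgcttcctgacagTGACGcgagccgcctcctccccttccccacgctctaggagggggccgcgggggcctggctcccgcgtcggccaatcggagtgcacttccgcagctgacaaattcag
Atf3: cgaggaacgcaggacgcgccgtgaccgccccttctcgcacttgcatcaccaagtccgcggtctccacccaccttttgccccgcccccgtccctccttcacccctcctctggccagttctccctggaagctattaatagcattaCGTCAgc
Jun: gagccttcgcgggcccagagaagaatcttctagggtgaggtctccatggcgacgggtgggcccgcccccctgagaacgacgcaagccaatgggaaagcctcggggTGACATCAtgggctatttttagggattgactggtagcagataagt
The letters TGACG were found on either strand in 4 of the 7 promoters, against 20.8% of the 32851 promoters of the RefSeq table, each taken from 250 bases before to 50 after the start. Fos held them at 2 places, at -129 to -125 and at -66 to -62 from the start. In Fosb they lay at -60 to -56, in Junb at -106 to -102 and in Atf3, on the opposite strand, at -7 to -3. Jun held TGACATCA at -45 to -38, letters found in 3.62% of the promoters and in no other member. The AP-1 site TGANTCA was in 0 of the 7 windows (7.81% of all promoters), the Myc and Max E-box CACGTG in 0 (7.15%) and the CArG box of serum response factor in 0 (1.63%). Sites further than 250 bases before the start were not searched, so a 0 does not mean that a gene lacks the site. The Egr site GCGNGGGCG was in Fosb at -50 to -42 and in Fosl2 at -79 to -71, against 5.55% of all promoters. TATAAA was in Fos at -33 to -28 and in Junb at 1 to 6, after the start used, against 13.6%. All motifs were searched on both strands, and none of the matches overlapped another. The RefSeq start used for this search was that of the gene in GENCODE M21 for Fos and Jun. Those of Jund and Junb lay upstream of the M21 gene, and those of Atf3, Fosl2 and Fosb inside it. The window of Junb reached into its M21 gene. That of Jund, chr8:70697489-70697788, ended before its M21 gene began at 70698949. It thus does not cover the start of that gene, although it is counted among the 7. A match describes letters, not a bound site.

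The libraries held 19977713 to 23610870 fragments, and the depths of the groups overlapped. MI replicate 2 stood apart from the other MI mice. Fragments from mitochondrial genes were 26.5% to 27.4% in the sham-operated mice, 13.6% and 14.9% in MI replicates 1 and 3, and 28.2% in MI replicate 2. The summed FPKM of 10 cardiomyocyte markers was 15099 to 16327 in the sham-operated mice, 10112 and 10861 in MI replicates 1 and 3, and 15023 in MI replicate 2, so the tissue carried the defining genes of heart muscle in every mouse. The summed FPKM of 10 fibroblast and myofibroblast markers was 173 to 222 in the sham-operated mice, 2730 and 2179 in MI replicates 1 and 3, and 283 in MI replicate 2. The results are therefore given with and without MI replicate 2. In bulk tissue, fewer cells of a type and less RNA per cell cannot be told apart.

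In MI replicates 1 and 3 the immediate early and AP-1 genes were high, whereas in MI replicate 2 all but Myc lay within or below the range of the sham-operated mice. MI replicate 3 was above all 4 sham-operated mice for 10 of the 10 members, and MI replicate 1 for 9, Fosb being the exception. Both were above for 9 members, which held for 61.9% of the 11431 genes tested and for 43.4% of all 30504 genes above 0. MI replicate 2 lay within the sham range for 6 members, below it for Fos, Jund and Atf3 and above it for Myc. In this mouse 30.2% of the genes tested were below the sham range (17.4% of all genes above 0) and 20.4% above it. Myc was thus the only member with all 3 MI mice above all 4 sham-operated mice, a pattern seen in 16.1% of the genes tested and in 12.0% of all genes above 0. With quantile normalization, median log-ratio scaling or mitochondrial genes left out, Junb joined it.

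The limma test was run on the log2(FPKM + 1) scale for genes that reached an FPKM of 1 in 3 mice or more. This scale understates the change of low genes. The filter kept 7 members. Of these, Fos reached the FPKM of 1 in 4 mice, sham replicates 2 and 4 and MI replicates 1 and 3. It thus passed only with the help of MI mice in which it was high, and the counts and medians over the 7 include it. Fosb, Fosl1 and Myc were under the filter, and their values come from a fit without it. In that fit 0 of the 10 members and 0.0656% of all genes were higher at the adjusted p. By limma, 0 of the 7 members passed an adjusted p of 0.05 as higher in MI (0.0175% of all genes tested did) and 0 as lower (0.00875%). Of the 7, 1, Junb, was higher before adjustment at 0.05, as were 29.5% of all genes tested, and 0 were lower (9.85%). By limma without the filter, Myc (unadjusted p = 0.0107) and Fosl1 (unadjusted p = 0.0296) were higher too, beside 7730 of all 30504 genes, higher or lower. With voom weights on the recovered fragments, again 0 of the 7 passed the adjusted p. The median log2 difference, MI minus sham, was 0.51 over the 7 members and 0.21 over all genes tested. Without MI replicate 2, all 7 were higher in MI at the adjusted p, as were 56.8% of all genes tested, with a median of 1.03 against 0.32. Counting the 3 low members in the fit without the filter, 9 of the 10 were then higher, Fosb being the exception, as were 36.2% of all genes in that fit. With MI replicate 1 or MI replicate 3 left out instead, 0 of the members passed the adjusted p. The p-values measure the spread between these mice, 3 against 4.

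**Figure D1:**
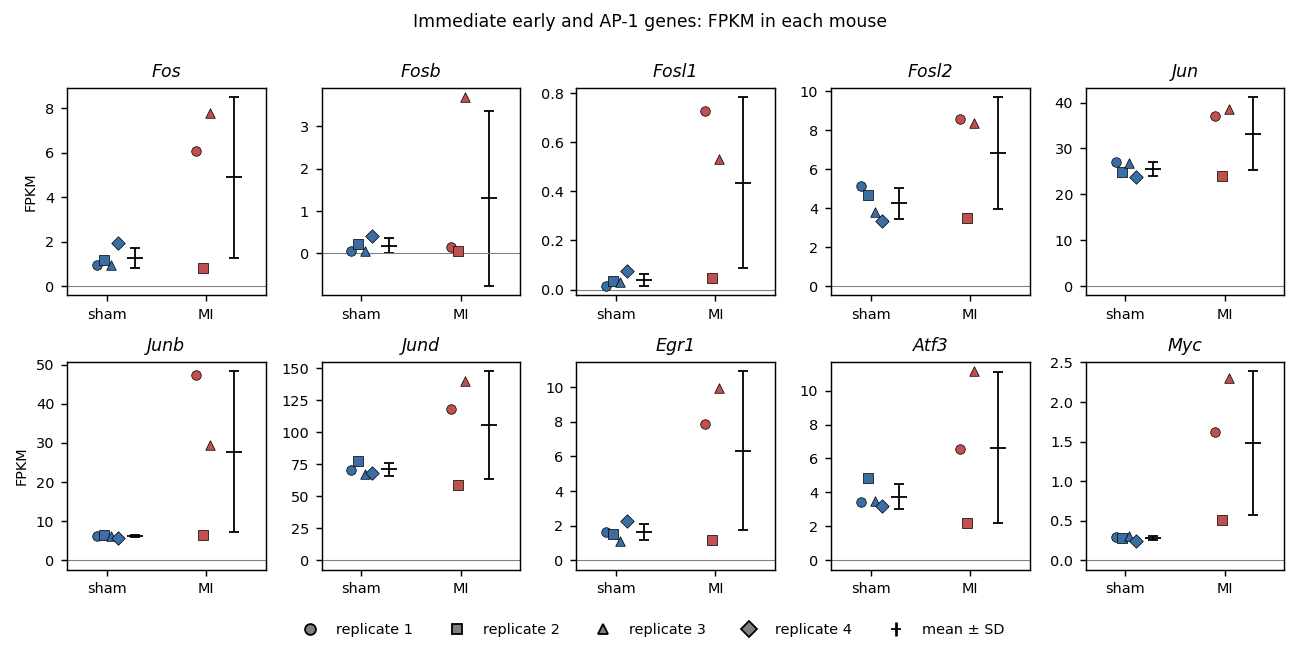
FPKM of each member in every mouse, in 1 panel per gene with its own linear axis, for sham-operated (blue, n = 4) and MI mice (red, n = 3). The horizontal marks and bars show the mean ± SD. MI replicates 1 and 3 lie above the sham-operated mice for every gene but Fosb, where MI replicate 1 lies among them, and MI replicate 2 lies above them only for Myc.

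The Fos family provides the partners that make AP-1 dimers more stable on DNA. Fos (chr12:85473890-85477273, plus strand, GRCm38), its founding and most transient member, had an FPKM of 0.952, 1.19, 0.955 and 1.94 in sham replicates 1 to 4, and of 6.07, 0.827 and 7.76 in MI replicates 1 to 3. MI replicates 1 and 3 were 4.81 and 6.16 times the sham mean, and MI replicate 2 was the lowest of all 7 mice. The mean was 1.26 ± 0.467 in the sham-operated mice (SD, n = 4) and 4.89 ± 3.62 in MI mice (SD, n = 3). On the log2 scale the difference was 1.12 (SE 0.51, adjusted p = 0.140, exact permutation p = 0.286) and was not larger than the spread between replicates by either test. Without MI replicate 2 it was 1.82 (adjusted p = 0.000139), and without MI replicate 3 it was 0.69 (adjusted p = 0.397).

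Fosb (chr7:19302696-19310051, minus strand) encodes a Fos protein with a stable short form that is known to accumulate under repeated stimulation. It was the most uneven member. Its FPKM was 0.0513, 0.209, 0.0490 and 0.412 in sham-operated mice and 0.150, 0.0588 and 3.70 in MI mice. Only MI replicate 3 was above the sham range, and MI replicate 1, where Fos was at 0.781 times its level in MI replicate 3, was inside it. The whole fragments behind these values were 54 in MI replicate 1, 22 in MI replicate 2 and 1442 in MI replicate 3, against 249 summed over the sham-operated mice. Per library depth, MI replicate 3 stood at 21.5 times the pooled sham-operated mice (95% exact interval 18.8 to 24.7) and MI replicate 1 at 0.872 times (0.637 to 1.17). These intervals cover counting error only. The sham-operated mice alone differed by 8.41 times between the highest and the lowest. On the log2 scale the difference was 0.61 (SE 0.51, adjusted p = 0.456), 0.99 without MI replicate 2 (adjusted p = 0.201) and -0.086 without MI replicate 3.

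Fosl1 (chr19:5447547-5455946, plus strand), which encodes Fra-1, a Fos protein without a strong activation domain, was the lowest member by the mean of either group, although in MI replicate 1 Fosb was lower. Its FPKM was 0.0164 to 0.0737 after sham surgery and 0.727, 0.0488 and 0.530 after MI. It had 1, 2, 2 and 4 fragments in sham-operated mice and 43, 3 and 34 in MI mice. MI replicate 1 was at 19.2 times the pooled sham level (95% exact interval 9.24 to 44.8), MI replicate 3 at 14.0 times (6.58 to 33.2) and MI replicate 2 at 1.29 times (0.225 to 5.17). A difference in MI replicate 2 was thus not detectable at this depth. The log2 difference was 0.44 (SE 0.16, adjusted p = 0.188), 0.65 without MI replicate 2 (adjusted p = 0.000434) and 0.29 without MI replicate 1 (adjusted p = 0.431). Its exons overlap those of Ccdc85b on the opposite strand by 1163 bases, and whether the counting used the strand is not given in the sources used here.

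Fosl2 (chr5:32135801-32157842, plus strand), which encodes Fra-2, was by contrast the main Fos family transcript of the sham-operated heart. Its FPKM was 5.12, 4.69, 3.82 and 3.35 in sham-operated mice and 8.59, 3.50 and 8.37 in MI mice. MI replicates 1 and 3 were close to each other and about 2.02 and 1.97 times the sham mean, whereas MI replicate 2 was within the sham range. The difference on the log2 scale was 0.51 (SE 0.28, adjusted p = 0.193), 0.87 without MI replicate 2 (adjusted p = 0.00118) and 0.32 without MI replicate 1 (adjusted p = 0.505).

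The Jun family can pair with itself or with Fos proteins. Junb (chr8:84974484-84978718, minus strand), which competes with Jun for partners, showed the largest log2 difference of the 10 members on the log2(FPKM + 1) scale, while with voom weights on fragments, where no 1 is added, Fosl1 (2.73) and Myc (2.14) were above it (1.74). Its FPKM was 6.22, 6.51, 6.31 and 5.74 in sham-operated mice and 47.4, 6.43 and 29.4 in MI mice. The sham-operated mice kept within 1.13 times of each other, while MI replicates 1 and 3 were 7.66 and 4.74 times their mean. MI replicate 2 lay 1.04 times the sham mean and under sham replicate 2. The mean was 6.20 ± 0.326 (SD, n = 4) against 27.7 ± 20.6 (SD, n = 3). MI and sham differed by a log2 value of 1.63 (SE 0.57, adjusted p = 0.109, unadjusted limma p = 0.0228, exact permutation p = 0.114). It was 2.41 without MI replicate 2 (adjusted p = 3.14e-05) and 1.06 without MI replicate 1 (adjusted p = 0.338). Its exons overlap those of Prdx2 on the opposite strand by 173 bases.

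Jun (chr4:95049034-95052222, minus strand), the AP-1 member that Jun kinases activate, had the smallest log2 difference of the 10 with all 7 mice. Its FPKM was 27.0, 24.8, 26.7 and 23.7 in sham-operated mice and 37.1, 24.0 and 38.5 in MI mice. MI replicates 1 and 3 were 1.45 and 1.51 times the sham mean and MI replicate 2 was within the sham range. The log2 difference was 0.34 (SE 0.17, adjusted p = 0.165), which is 0.13 above that of the median gene. Without MI replicate 2 it was 0.55 (adjusted p = 0.000427), and without MI replicate 3 it was 0.22 (adjusted p = 0.441). Its exons overlap those of Junos on the opposite strand by 232 bases.

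Jund (chr8:70698949-70700616, plus strand), the member known for steady expression in resting cells, was the most abundant of the 10 in every mouse. Its FPKM was 70.9, 77.7, 67.1 and 68.2 in sham-operated mice and 118, 58.9 and 140.0 in MI mice. MI replicate 2 was the lowest of all mice and MI replicates 1 and 3 the highest, at 1.67 and 1.97 times the sham mean. On the log2 scale the difference was 0.48 (SE 0.28, adjusted p = 0.210), 0.85 without MI replicate 2 (adjusted p = 0.000188) and 0.23 without MI replicate 3 (adjusted p = 0.565). Its exons overlap those of Gm11175 on the opposite strand by 877 bases.

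**Figure D2:**
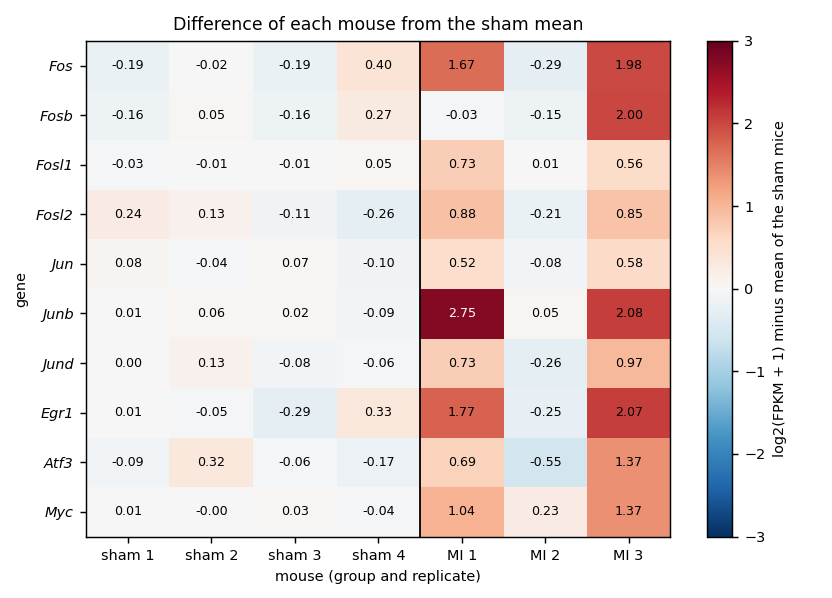
Difference of each mouse from the mean of the sham-operated mice, as log2(FPKM + 1), for the 10 members (rows) in the 7 mice (columns). Red is higher and blue lower than the sham mean. MI replicates 1 and 3 are red but for Fosb in MI replicate 1 (-0.027), with the largest value, 2.75, for Junb in MI replicate 1, while the column of MI replicate 2 runs from -0.55 for Atf3 to 0.23 for Myc.

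The share of each gene in the summed FPKM of its family was computed within each mouse, so that scaling between mice does not enter. It addresses whether the make-up of the AP-1 transcripts differed and not only their amount. The Jun family summed to 97.6 to 109 FPKM in sham-operated mice and to 203, 89.3 and 208 in MI mice. The Fos family summed to 4.86 to 6.14 in sham-operated mice and to 15.5, 4.44 and 20.4 in MI mice. On either sum MI replicate 2 was the lowest of the 7 mice.

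Junb had a larger share of the Jun family in each of the 3 MI mice than in any sham-operated mouse. The share was 5.97%, 5.97%, 6.30% and 5.88% in sham-operated mice and 23.4%, 7.20% and 14.1% in MI mice. This was the only one of the 7 shares whose groups did not overlap, and MI replicate 2 was on the side of the other MI mice. In MI replicate 2, however, the FPKM of Junb was within the sham range, and Jund, the largest part of the sum, was the lowest of all mice. The mean share was 6.03% ± 0.184 (SD, n = 4) against 14.9% ± 8.12 (SD, n = 3), with an exact two-sided permutation p of 0.0571, the smallest that 3 against 4 mice allow. The difference of 8.87 percentage points was 4.63 without MI replicate 1. Jund made up 69.1% ± 1.89 of the family in sham-operated mice and 63.8% ± 4.86 in MI mice (exact permutation p = 0.114), and Jun 24.9% ± 1.77 and 21.3% ± 4.91 (exact permutation p = 0.286).

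In the Fos family, Fosl2 had 83.4%, 76.6%, 78.7% and 58.0% of the sum in sham-operated mice and 55.3%, 78.9% and 41.1% in MI mice. Sham replicate 4, in which Fos, Fosb and Fosl1 were all highest among the sham-operated mice, lay close to MI replicate 1. Fos took 22.1% ± 7.94 (SD, n = 4) of the sum after sham surgery and 31.9% ± 11.5 (SD, n = 3) after MI (exact permutation p = 0.229). The Fosb share was 18.2% in MI replicate 3, 0.966% in MI replicate 1 and 1.33% in MI replicate 2. Per merged exon length in place of the length behind the deposited FPKM, the Fos family shares of MI replicate 3 were 29.6% for Fosb, 37.9% for Fos and 30.4% for Fosl2. The Fosl1 share was 0.267% to 1.28% in sham-operated mice and 4.68%, 1.10% and 2.60% in MI mice (exact permutation p = 0.114). No Fos family share separated the groups.

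**Figure D3:**
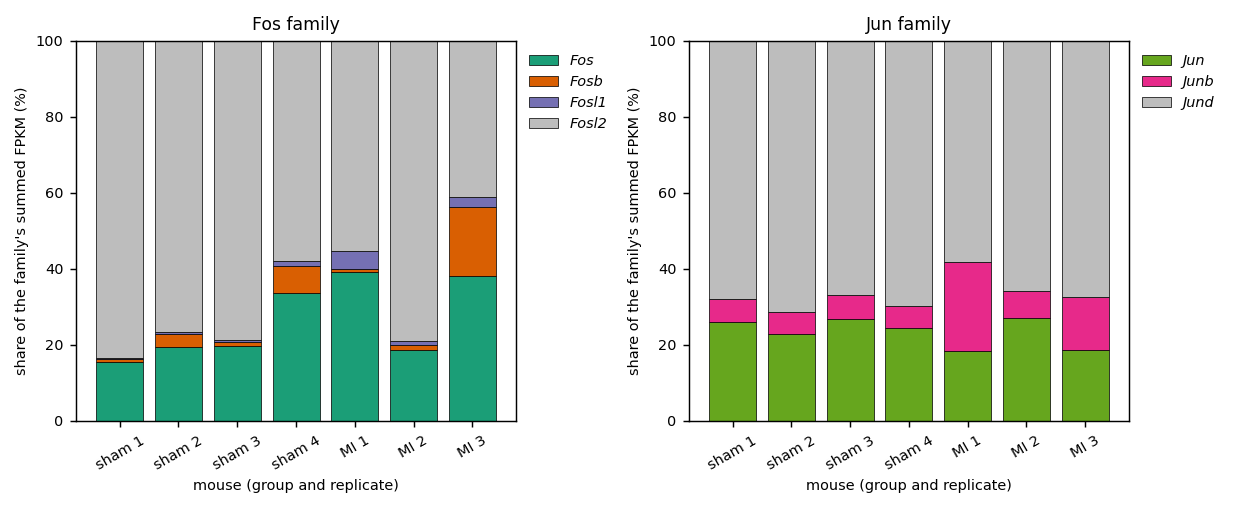
Share of each gene in the summed FPKM of the Fos family (left) and of the Jun family (right), in percent, with 1 stacked bar per mouse. Junb widens from about 6.03% in the sham-operated mice to 23.4%, 7.20% and 14.1% in MI replicates 1 to 3, and Fosb takes 18.2% of the Fos family in MI replicate 3.

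Egr1 (chr18:34859823-34864984, plus strand), the zinc finger factor that serum response factor induces together with Fos, had an FPKM of 1.62, 1.53, 1.14 and 2.28 in sham-operated mice and of 7.87, 1.20 and 9.96 in MI mice. Like Fos it was highest among the sham-operated mice in replicate 4, and its MI replicates 1 and 3 were 4.80 and 6.07 times the sham mean. MI replicate 2 was within the sham range. On the log2 scale the difference was 1.20 (SE 0.52, adjusted p = 0.130), 1.92 without MI replicate 2 (adjusted p = 8.02e-05) and 0.76 without MI replicate 3 (adjusted p = 0.373).

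Atf3 (chr1:191170296-191218039, minus strand) had an FPKM of 3.43, 4.86, 3.52 and 3.18 in sham-operated mice and of 6.57, 2.22 and 11.1 in MI mice. It differed most between MI replicates 1 and 3 after Fosb, at 1.69 times, and MI replicate 2 was the lowest of all mice at 0.593 times the sham mean. The log2 difference was 0.50 (SE 0.41, adjusted p = 0.349), 1.03 without MI replicate 2 (adjusted p = 0.00362) and 0.070 without MI replicate 3 (adjusted p = 0.896).

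Myc (chr15:61985391-61990374, plus strand) was low but steady in the sham-operated mice, at 0.290, 0.277, 0.302 and 0.247 FPKM. It was at 1.62, 0.505 and 2.31 in MI mice. All 3 MI mice were above all 4 sham-operated mice, and MI replicate 2 was 1.81 times the sham mean. The values rest on 41 to 59 fragments in sham-operated mice and on 294, 95 and 453 in MI mice. For MI replicate 2 the ratio to the pooled sham-operated mice was 1.80 (95% exact interval 1.40 to 2.31, counting error only). The mean was 0.279 ± 0.0237 (SD, n = 4) against 1.48 ± 0.910 (SD, n = 3), with an exact permutation p of 0.0571, the smallest possible. In the fit without the filter the log2 difference was 0.88 (SE 0.25, adjusted p = 0.188), 1.20 without MI replicate 2 (adjusted p = 0.0004) and 0.64 without MI replicate 3 (adjusted p = 0.411).

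Levels were compared between genes per length of gene. On the deposited FPKM scale the order in the sham-operated mice was Jund, Jun, Junb, Fosl2, Atf3, Egr1, Fos, Myc, Fosb and Fosl1. The ranges of Fosl2 and Atf3, of Egr1 and Fos, of Myc and Fosb, and of Fosb and Fosl1 overlapped, and the other neighbours did not. In the MI mice the same order held for the means, but only Jund was separate from its neighbour. The length behind the deposited FPKM was found to be the sum of all distinct exons of a gene in GENCODE M21, in which stretches shared by overlapping exons count more than once. It was 8315 bases for Myc against 2717 bases of merged exons, 16525 against 6243 for Fosb, 7520 against 4484 for Egr1 and 3792 against 2352 for Fos, whereas for Jun and Junb the lengths were equal. Per merged exon length, the levels of Myc, Fosb, Egr1 and Fos would be 3.06, 2.65, 1.68 and 1.61 times as high, and Egr1, with 10.6 ± 7.67 (SD, n = 3), would come after Junb in the order of the MI mice. Ratios between mice for a single gene are not affected, but differences of log2(FPKM + 1) and the filter are. Myc would be at 0.755 to 0.925 in sham-operated mice and at 4.97, 1.54 and 7.06 in MI mice, would reach the FPKM of 1 in 3 mice, and would have a log2 difference of 1.42 in place of 0.88. On that scale the Junb share was 6.04% ± 0.184 against 14.9% ± 8.13, and the mean Fosb share in MI mice was 11.4% in place of 6.81%.

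Among the sham-operated mice the spread was itself uneven between members. The coefficient of variation was 5.27% for Junb, 6.20% for Jun, 6.72% for Jund and 8.51% for Myc, against 28.8% for Egr1, 37.1% for Fos, 63.0% for Fosl1 and 95.2% for Fosb. Sham replicate 4 was the highest of the 4 for Fos, Fosb, Fosl1 and Egr1 (20.1% of all genes tested) and the lowest for Fosl2, Jun, Junb, Atf3 and Myc (35.0%). In the MI mice the coefficient of variation was above that of the sham-operated mice for all 10 members, from 24.0% for Jun to 159% for Fosb.

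Other immediate early genes were taken from a list of 40, of which 33 passed the filter. By limma, 0 passed the adjusted p, and 16 were higher and 0 lower at an unadjusted p under 0.05, beside 29.5% and 9.85% of all genes tested. The groups did not overlap for 8 of the 33, with the MI mice higher, beside 16.1% of all genes tested. The median log2 difference was 0.50, against 0.21 for all genes tested, and without MI replicate 2 24 of the 33 were higher and 0 lower at the adjusted p, beside 56.8% and 14.9% of all genes in that fit. The 4 with the smallest p were Plk2, a kinase of the stress response, at 1.00 (SE 0.28), Ccn2, the matrix protein also called CTGF, at 2.95 (SE 0.83), Gadd45b, a stress sensor, at 1.20 (SE 0.38), and Zfp36, which speeds the decay of mRNAs, at 0.60 (SE 0.19), each with an adjusted p of 0.108. Ccn2 had a mean FPKM of 14.5 ± 2.11 in sham-operated mice and 220, 22.1 and 329 in MI mice, so that MI replicate 2 too was above the sham range.

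Of the 33 genes, MI replicates 1 and 3 were both above the sham range for 25 (61.9% of all genes tested), MI replicate 3 alone for 7 (3.22%) and MI replicate 1 alone for 0. The 7 were Nr4a1, Csrnp1, Rhob, Dusp1, Klf4, Klf2 and Sgk1, of which 3 are described here, chosen after their values were seen. Nr4a1, a nuclear receptor induced by many stimuli, had an FPKM of 11.1 to 17.1 in sham-operated mice and of 9.01, 4.76 and 24.4 in MI mice. Dusp1, a phosphatase that turns off MAP kinases, was at 12.5 to 15.2 and at 12.5, 9.71 and 23.5. Klf2, a factor of endothelial cells, was at 42.7 to 48.5 and at 39.9, 36.6 and 69.3. Fosb showed the same order, with MI replicate 3 alone above the sham range. Socs3, an inhibitor of cytokine signalling, also chosen after its values were seen, was instead highest in MI replicate 1, with 1.10 to 1.21 in sham-operated mice and 21.7, 1.65 and 7.81 in MI mice.

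**Figure D4:**
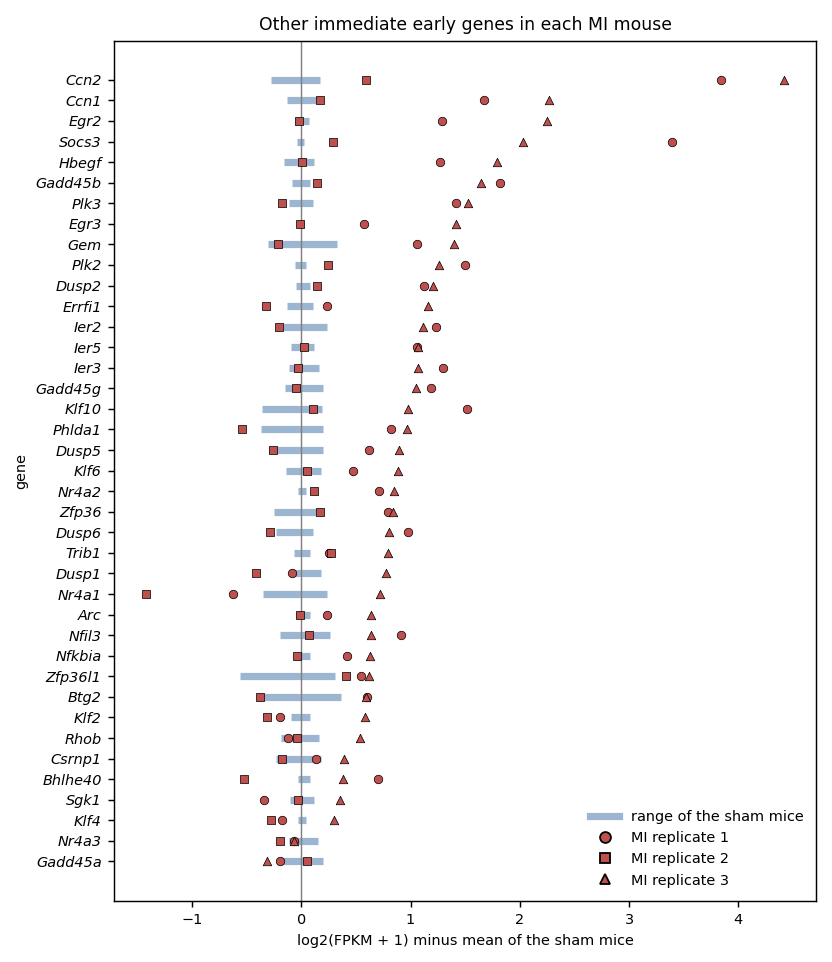
Difference from the sham mean, as log2(FPKM + 1), for 39 other immediate early genes with an FPKM above 0.5 in any mouse. Bars show the range of the 4 sham-operated mice and red symbols the 3 MI mice, and genes are ordered by MI replicate 3. Ccn2 has the largest differences, and at Nr4a1, Dusp1 and Klf2 only MI replicate 3 (triangles) is to the right of the bar.

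Of 16 other bZIP genes, of the Atf, Batf, Maf and Creb groups among others, 11 were tested and 0 passed the adjusted p, while 8 were higher and 0 lower at an unadjusted p under 0.05 (29.5% and 9.85% of all genes tested). Their median log2 difference was 0.51, and 10 of the 11 were higher without MI replicate 2 at the adjusted p (56.8% of all genes). Among those with the smallest p were Mafg, a small Maf protein, at 0.51, Creb1, which binds the cyclic AMP response element, at 0.47, and Maf at 0.87. The 18 genes of the kinases and serum response factors upstream had a median of 0.13, against 0.21 for all genes tested. Of the 18, 0 passed the adjusted p, and 5 were higher at an unadjusted p, a share near the 29.5% of all genes. Without MI replicate 2, 8 of the 18 were higher at the adjusted p, a smaller share than the 56.8% of all genes. Mrtfb, a coactivator of serum response factor, was at 4.63 to 5.09 in MI mice, MI replicate 2 included, against a sham mean of 3.20 ± 0.317 (SD, n = 4), with a log2 difference of 0.49. Elk3, a partner of serum response factor, was at 0.84, Rps6ka1, a kinase downstream of ERK, at 0.73 and Mapk3, which encodes ERK1, at 0.56.

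Of 11 genes of the wider Myc and Max network, Mlx and Mlxip among them, 7 were tested. By limma 0 passed the adjusted p, and 4 were higher at an unadjusted p (29.5% of all genes tested). For 5 of the 7 all MI mice were above all sham-operated mice, beside 16.1% of all genes tested. At the adjusted p, 4 of the 7 were higher without MI replicate 2, a share near the 56.8% of all genes. Those with the smallest p were Mxd1, an antagonist of Myc, at a log2 difference of 0.58, Mnt, another antagonist, at 0.65, Mxd4, of the same family as Mxd1, at 0.76 and Max, the common partner, at 0.31. Of 19 genes described to be bound by Myc and to respond to it, all were tested, with 0 higher and 1 lower at the adjusted p (0.0175% and 0.00875% of all genes) and a median of 0.22. At an unadjusted p, 3 were higher and 2 lower, beside 29.5% and 9.85% of all genes. The one lower at the adjusted p was Tfrc, the transferrin receptor, with an FPKM of 17.2, 13.2, 12.4 and 16.9 in sham-operated mice and 3.47, 3.74 and 4.56 in MI mice, a log2 difference of -1.69 (SE 0.15, adjusted p = 0.0323). It was low in all 3 MI mice, including MI replicate 2. Its log2 difference kept its sign under all 18 alternatives, but it passed the adjusted p under 10 of them. It did not with a filter on the mean (adjusted p = 0.0871), with the replicate block (0.240) or with any mouse but MI replicate 2 left out (0.119 to 0.174). The ribosome assembly genes Npm1 and Ncl were at 0.73 and 0.34 and Odc1, of polyamine synthesis, at 0.49, all with an adjusted p of 0.108. Without MI replicate 2, 14 of the 19 were higher and 2 lower, beside 56.8% and 14.9% of all genes.

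Of 18 genes described to respond to AP-1, 11 were tested. By limma 0 passed the adjusted p, 8 were higher and 0 lower at an unadjusted p (29.5% and 9.85% of all genes tested), and the median log2 difference was 1.06, against 0.21 for all genes. The hyaluronan receptor Cd44 is among the 8 but was under an FPKM of 1 in every sham-operated mouse. It passed the filter only through the MI mice, so that it had to differ. Without it 7 of 10 were higher, with a median of 1.04. The 7 still hold Mmp3 (0.842, 0.794, 1.06 and 0.945 in sham-operated mice) and Timp1 (1.10, 1.20, 0.923 and 0.723). Both also needed the MI mice to pass the filter, so this count is not free of it. The metallothionein Mt1 was at 0.71, with 34.8 to 42.9 FPKM in sham-operated mice and 60.7, 58.8 and 79.1 in MI mice, MI replicate 2 again above the sham range. Timp1, an inhibitor of matrix proteases, was at 3.75. Without MI replicate 2, 9 of the 10 that stayed past the filter were higher, beside 56.8% of all genes.

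The summed levels of macrophage, fibroblast and neutrophil markers were above the sham range in MI replicates 1 and 3, in which the members were high, and that of cardiomyocyte markers was below it. Of 9 macrophage markers 9 were higher at an unadjusted p (29.5% of all genes tested). Of these, Fcgr1 was under an FPKM of 1 in every sham-operated mouse and passed the filter only through the MI mice. Lgals3 (0.913, 0.859, 0.937 and 1.12 in sham-operated mice) also needed the MI mice to pass it. The summed FPKM of the 9 was 63.1 to 80.7 in sham-operated mice and 386, 77.6 and 327 in MI mice. Of the 10 fibroblast and myofibroblast markers 9 were higher, and of the 10 cardiomyocyte markers 6 were lower, at an unadjusted p (9.85% of all genes tested). Of the 6 endothelial markers 1 was higher at an unadjusted p, and all 3 MI mice were above the sham range for 1 and below it for 1, near the 16.1% and 9.0% of all genes tested. The 6 endothelial markers summed to 107 to 123 in sham-operated mice and to 133, 99.7 and 143 in MI mice. The 7 neutrophil markers were all under the filter, with sums of 0.355 to 1.33 and of 14.0, 0.503 and 7.46, and 2 of them, Ly6g and Retnlg, were at 0 in all sham-operated mice. With all 7 mice no marker of these lists passed the adjusted p. Without MI replicate 2, 10 of 10 fibroblast, 8 of 8 macrophage and 4 of 6 endothelial markers were higher at it (56.8% of all genes). Of 10 cardiomyocyte markers 9 were lower (14.9%). All 3 MI mice were above the sham range for 8 of 10 fibroblast and 5 of 9 macrophage markers, Fcgr1 among them (16.1%). They were below it for 1 of 10 cardiomyocyte markers (9.0%). The part of these markers in the values of the members was not tested.

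**Figure D5:**
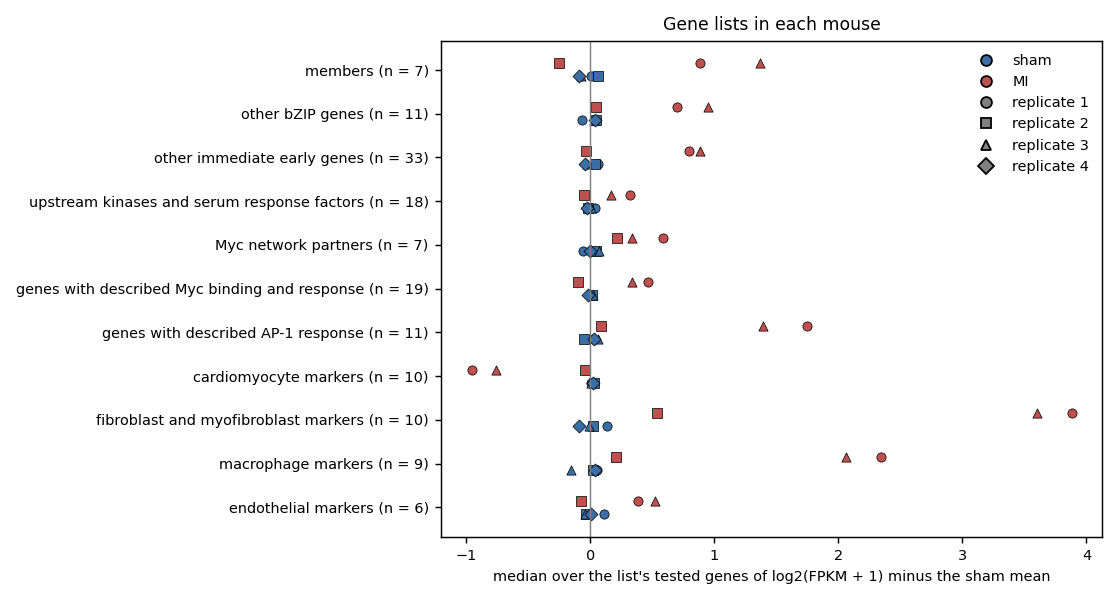
Median over the tested genes of each list of log2(FPKM + 1) minus the sham mean, in each mouse. The lists are the members, 6 lists of related genes and 4 lists of cell type markers, and n is the number of genes tested. MI replicates 1 and 3 (red circles and triangles) lie outside the range of the sham-operated mice (blue) in every list. MI replicate 2 (red squares) runs from -0.25 for the members to 0.54 for the fibroblast markers.

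For Fos, Jun and Myc, the tested genes with the most similar pattern were found by the mean absolute difference of their log2 differences from the sham mean over the 7 mice. Egr1, at 0.089, was second for Fos, next to Ptma, which encodes prothymosin alpha, at 0.088, and Gm10080 at 0.11. Those nearest to Jun were Pigc at 0.023, Cops9 at 0.025 and Sppl3 at 0.026. Those nearest to Myc were Gab2 at 0.058, Ror1 at 0.060 and Fam102b at 0.063. All points of a mouse share its library and its tissue piece.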

How the data were processed

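RNA from the myocardium of 4 sham-operated and 3 MI mice was sequenced, and groups and replicate numbers were taken from the labels. The authors deposited 1 table of FPKM values with 1 column per mouse, and all columns were used (0 left unused). The submitters' processing notes name CASAVA 1.8, HISAT2, SAMtools 1.3.1, edgeR and the build mm10. The annotation and the strand setting of the counting are not given in the sources used here. GENCODE M21 (GRCm38) gave symbols and positions for 52073 identifiers (91.4%).

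Within a mouse, the deposited FPKM rose in steps worth 1 fragment. From these steps fragment numbers were recovered for 30504 of the 30504 genes above 0, within 0.03 of a whole number or a relative 2e-05 of it, up to 0.2. At the summed length of all distinct exons in M21, the values were whole in 93.6% of 28829 genes. The fragments gave the depths and the fragment numbers. Depth limits the low genes, and the SD over mice holds counting error as well as the difference between animals.

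Values were tested as log2(FPKM + 1) with limma 3.58.1 (R 4.3.3), using lmFit and eBayes with an intensity trend and no covariate. The 11431 genes that reached an FPKM of 1 in 3 mice or more entered. The methods of the study name no test for the sequencing. The Benjamini-Hochberg adjustment ran over all genes tested, with a threshold of 0.05. Exact two-sided permutation tests ran over the 35 splits of the 7 mice, on log2(FPKM + 1) for genes and on percent for the 7 family shares, unadjusted. Ratios of fragments have exact Clopper-Pearson intervals. The steps were tested on simulated data. Other steps used SciPy 1.17.1, NumPy 2.4.6, pandas 2.3.3 and matplotlib 3.10.9 under Python 3.11.15, and promoters came from RefSeq on GRCm38.p6.

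The members, the 11 gene lists beside them and the motifs were chosen with earlier results of these data known. Named genes are the 10 members, up to 4 genes of each list with the smallest unadjusted p, and the 3 genes nearest to Fos, Jun and Myc. Immediate early genes high in 1 MI mouse alone, Socs3, and Mmp3, named for its filter entry, fall outside this rule. They were chosen after their values were seen. Some genes that this rule names are not reported here. For marker lists counts, sums and the markers at 0 are given. Alternatives were the pseudocount, the filter, the scaling, limma settings, voom on recovered fragments, a replicate block and each mouse left out. Levels per merged exon length, and fits without the filter of the low members under the other alternatives, were added after the data were seen.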

Additional observations from a re-analysis of the deposited data

How the results depend on the processing

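The count of 0 members higher at the adjusted p was also 0 under 16 of 18 alternatives: pseudocount 0.1, no filter, a filter on the mean, 4 scalings, no trend, voom, the replicate block and 6 of the 7 mice left out. It was 7 with sample weights, where limma also called 7636 genes higher and 2316 lower and MI replicate 3 had a weight of 437 against 0.0906 and 0.0217 for MI replicates 1 and 2. With each mouse left out in turn it ran from 0 to 7, with 7 without MI replicate 2. The count of lower members was 0 under all 18.

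Members whose MI mice all lay above all sham-operated mice numbered 1, and 2 with quantile normalization, median log-ratio scaling or without mitochondrial genes, where Junb joined Myc. With each mouse left out the count ran from 1 to 9, with 2 without sham replicate 2 (Junb and Myc), 2 without sham replicate 4 (Fosl1 and Myc) and 9 without MI replicate 2. The direction of each member's log2 difference held under every alternative except for Fosb, at -0.086 without MI replicate 3, but its size did not: leaving out MI replicate 1 or MI replicate 3 lowered Atf3 to 0.070, Jund to 0.23, Fosl1 to 0.29, Fosl2 to 0.32, Jun to 0.22, Fos to 0.69, Egr1 to 0.76, Myc to 0.64 and Junb to 1.06. Quantile normalization lowered Jun to 0.12, Fosl2 to 0.23, Atf3 to 0.22 and Jund to 0.32, and median log-ratio scaling gave 0.13, 0.30, 0.29 and 0.27 for these and 0.20 for Fosl1. The Fosb share turned to -1.95 percentage points without that mouse and ran from -1.95 to 6.64 over the mice left out. The other shares kept their direction, with differences of 4.63 to 12.7 for Junb, -25.9 to -7.04 for Fosl2 6.33 to 16.5 for Fos, -6.96 to -2.44 for Jund, -6.49 to -2.19 for Jun and 1.17 to 2.95 for Fosl1 over the mice left out. In fragments not divided by length they were 5.02 for Fos, 0.678 for Fosl1, 6.81 for Fosb and -5.65 for Jun.

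The replicate numbers showed no sign of pairing the mice. Deviations of same-numbered mice from their group means correlated at 0.074, -0.016 and -0.080, and those of other pairs at -0.091 to 0.081. As such deviations sum to 0 within each group, the check cannot exclude a pairing. The replicate block left 0 members and 0 genes past the adjusted p. All genes past it numbered 2 higher and 1 lower, and from 0 to 10 higher and 0 to 5 lower in the fits with the filter other than those with sample weights or without MI replicate 2, which gave 6394 higher and 1677 lower. Median log-ratio scaling brought the median gene from 0.21 to 0.00 (-0.0027). The causes were not tested. Fosl1 rests on 1 to 4 fragments in each sham-operated mouse, which limits its ratios.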
